A study of Mus musculus with 16 samples.

Results

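The unfolded protein response and the integrated stress response were followed here through 32 genes, chosen by name for their roles in the folding machinery of the endoplasmic reticulum (ER), its stress sensors and the transcription factor targets downstream of them. All 32 were listed for each of the 16 libraries, with or without signal, among 26595 listed features in one experiment and 36930 in the other. They fell into 9 ER chaperones, 6 lectin chaperones or disulfide isomerases, 5 genes of ER-associated degradation (ERAD) or the translocon, 6 sensors or transcription factors and 6 targets of ATF4 and CHOP. A wider list of other genes of the same pathways (112 matched in the first experiment, 111 in the second) is given beside them by counts.

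The libraries came from mouse bone marrow cells purified by flow cytometry, with an age label of post natal week 8 in all 6 groups. In the drug experiment, 3 libraries of leukemia stem cells (LSCs) came from mice with chronic myeloid leukemia (CML) given metoclopramide (MCP) at 10 mg/kg in vivo and 3 from CML mice given vehicle (Veh). In the CD93 experiment, 3 LSC libraries were from CD93-/- (KO) cells and 3 from wild-type (WT) cells, and 2 libraries of naive LSK cells were KO and 2 were WT. The LSK gate takes marrow cells without lineage markers that carry Sca-1 and c-Kit, and it holds the blood stem cells. CML was made by giving non-irradiated C57BL/6 mice, which keep their own blood formation, LSK cells transduced with the fusion oncogene BCR-ABL1 and GFP; the labels do not name the promoter of that construct. WT and drug-experiment cells carried no other stated allele; a strain label is missing for the KO samples, and the drug samples are called LSC in their titles, which were followed, but LSK in another field. Nothing in the labels says that replicates were separate animals, so p-values measure the spread between these libraries, which may be technical.

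Proteins that misfold in the ER draw the chaperone Hspa5 (BiP) away from the membrane sensors Ern1 (IRE1 alpha), Eif2ak3 (PERK) and Atf6. Ern1 splices the Xbp1 messenger RNA so that it encodes an active factor, cleaved Atf6 enters the nucleus, and Eif2ak3 phosphorylates the translation factor eIF2 alpha, which slows general protein synthesis and favours translation of Atf4. Atf4 in turn drives Ddit3 (CHOP), amino acid synthesis genes and Ppp1r15a (GADD34), whose product brings a phosphatase to eIF2 alpha; in blood stem cells these branches are known for their link to cell survival under stress. Because Xbp1 splicing, Atf6 cleavage and Atf4 translation happen after transcription, the RNA levels below do not measure the activity of those factors.

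Libraries of the CD93 experiment differed in how much of the transcriptome they held. Features above the lowest listed value numbered 14279 to 14906 in the LSK libraries, 5525 to 7956 in WT LSC libraries and 1230 to 2967 in KO LSC libraries, against 15587 to 16447 with MCP and 19554 to 20014 with vehicle. The lowest value stands for no signal (0.003 RPKM for the CD93 libraries, 0.001 for MCP and Veh). RPKM is a level per length of the gene and per library size, so levels can be set side by side between genes of a library. Cd93, the deleted gene, was 0.003, 44.3 and 0.003 RPKM in KO LSC libraries 1 to 3, 0.003, 0.003 and 5.74 in WT LSC libraries 1 to 3, 1.01 and 2.10 in KO LSK and 5.34 and 22.9 in WT LSK. The library labelled KO LSC 2 therefore had the highest Cd93 level of its experiment; what the deletion removed is not stated, and results without this library are given where it decides a call. The sort markers of stem and progenitor cells (10 genes, Kit and Ly6a among them) summed to 218 to 228 RPKM with MCP and 337 to 354 with vehicle, and to 1.3 to 304 in KO LSC, 29.2 to 114 in WT LSC and 1343 to 2619 in LSK libraries. Kit and Slamf1 gave no signal in KO LSC, where each library had 1 of the 10 markers above the lowest value.

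The promoters of several members carry the elements through which the stress response is known to act, and they are shown for the members described in detail below. Promoter sequences were those of RefSeq (GRCm38.p6), 250 bases before to 50 after the start, and 29 of the 32 members had one; Atf6, Hyou1 and Manf did not. On both strands, 3 motifs were searched: the ER stress element ERSE (CCAAT, then 9 free bases, then CCACG), ERSE-II (ATTGG, 1 free base, then CCACG) and the C/EBP-ATF composite element CARE (TGATG, 1 free base, then AA), which do not overlap each other in the members. ERSE was present in 8 of the 29 promoters (Calr, Canx, Creld2, Dnajc3, Hsp90b1, Hspa5, Pdia6 and Syvn1), against 0.137% of 27025 genes with promoters of the same length. ERSE-II was in Dnajb11 and Herpud1 (0.044% of all genes), and CARE in Asns, Chac1, Herpud1 and Trib3 (4.511%). The members were chosen for known roles in this response, and the motifs are its known elements. Their higher shares among the members can thus follow from the choice of genes, and the contrast with all genes is no test. A match describes letters in a window and not a bound site. The stretches below run 5′ to 3′ on the strand of the gene with the motif, or its reverse complement, in capitals: Hspa5 has an ERSE close to its start, Hsp90b1 has a pair of them facing opposite ways, Syvn1 is the ERSE gene that passed as lower in WT LSC than in WT LSK, Herpud1 joins CARE and ERSE-II, and Asns holds CARE.
Hspa5, chr2:34771840-34772089, plus strand: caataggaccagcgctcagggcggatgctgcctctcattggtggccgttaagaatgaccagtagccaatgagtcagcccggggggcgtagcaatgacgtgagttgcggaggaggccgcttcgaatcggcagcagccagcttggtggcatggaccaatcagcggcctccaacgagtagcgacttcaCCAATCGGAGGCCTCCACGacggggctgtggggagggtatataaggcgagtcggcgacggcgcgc
Hsp90b1, chr10:86705521-86705668, minus strand: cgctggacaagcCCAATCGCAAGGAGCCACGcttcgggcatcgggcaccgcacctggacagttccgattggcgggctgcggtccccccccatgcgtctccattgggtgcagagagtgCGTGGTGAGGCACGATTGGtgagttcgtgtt
Syvn1, chr19:6046520-6046562, plus strand: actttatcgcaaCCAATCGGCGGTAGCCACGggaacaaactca
Herpud1, chr8:94386305-94386399, plus strand: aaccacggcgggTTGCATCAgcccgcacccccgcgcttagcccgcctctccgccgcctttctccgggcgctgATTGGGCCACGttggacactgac
Asns, chr6:7693213-7693244, minus strand: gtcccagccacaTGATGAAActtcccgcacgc

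In the drug experiment every member but Chac1 was above the lowest value in all 6 libraries, and the set had a steep order of levels. The lectin chaperone Calr, which holds calcium and glycoproteins in the ER, was the highest member at 1681 ± 58.3 RPKM with MCP and 1689 ± 59.2 with vehicle (mean ± SD, n = 3 each). Hspa5 (830 ± 26.6 with MCP and 708 ± 15.3 with vehicle), the ER lumen chaperone Hsp90b1 (671 ± 43.6 with MCP and 662 ± 14.2 with vehicle), the isomerase Pdia3 (607 ± 10.0 with MCP and 509 ± 20.1 with vehicle) and the lectin Canx (579 ± 11.2 with MCP and 675 ± 14.8 with vehicle) held the next 4 places in both groups, in different orders: Canx was below Pdia3 with MCP and above Hsp90b1 with vehicle. At the low end stood Trib3, a pseudokinase induced by CHOP (0.986 ± 1.33 with MCP and 1.56 ± 0.223 with vehicle), and Chac1, which degrades glutathione and is a late target of Atf4 (0.001, 0.001 and 0.520 with MCP, against 1.63, 0.240 and 0.721 with vehicle). Libraries of a group lay close together: the median coefficient of variation over the 32 members was 10.1% with MCP and 5.56% with vehicle.

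**Figure D1:**
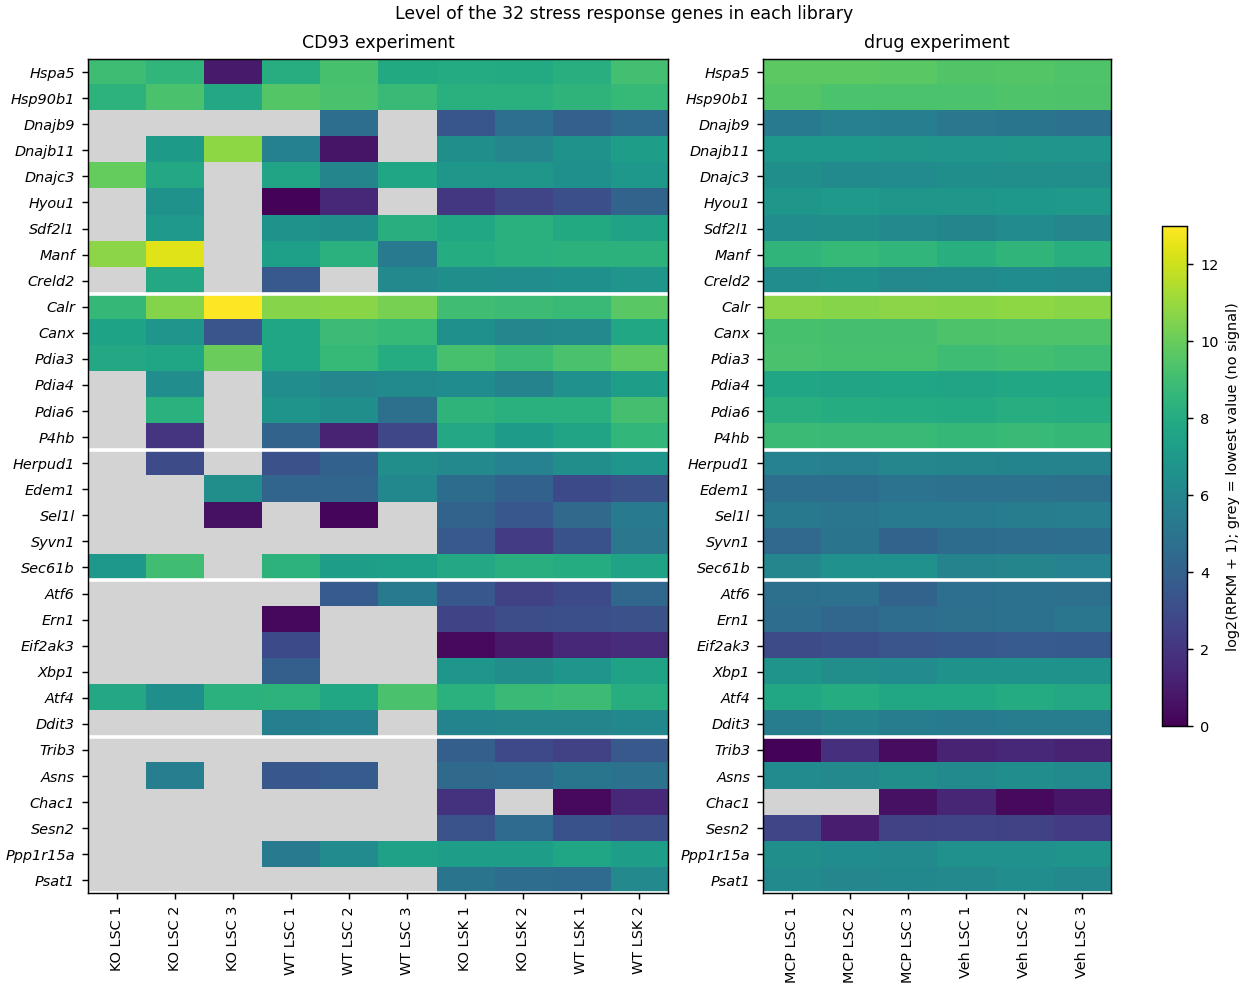
Level of the 32 members (rows, by role from ER chaperones at the top to ATF4 and CHOP targets at the bottom) in each library of the CD93 experiment (left) and the drug experiment (right), as log2(RPKM + 1), with grey for the lowest listed value. The MCP and Veh columns are filled nearly throughout, while the KO LSC columns hold signal for 9, 18 and 9 members and the WT LSC columns for 24, 23 and 18.

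MCP against vehicle asks what the drug, a dopamine receptor antagonist, did to this program in LSCs. No member passed the threshold of an adjusted p of 0.05: 0 of the 31 members tested, against 2.32% of all 14005 features tested (limma, two-sided, Benjamini-Hochberg over all features). At an unadjusted p below 0.05 there were 10 members of 31, and 23% of all features. The median log2 difference was −0.03 over the members and −0.18 over all tested features, so most of the transcriptome lay slightly lower with MCP on this scale, and 12 of 31 members had a positive difference against 28.2% of all features. Quantile normalization moved the median of all features to −0.005 and that of the members to 0.02. The sort-marker sum, which was lower with MCP, and the sums of promyelocyte granule genes (4784 to 4921 RPKM with MCP, 3106 to 3368 with vehicle) and of mast cell and basophil genes (74.9 to 82.0 with MCP, 228 to 242 with vehicle) also differed between the groups. So did the sums of neutrophil (255 to 365 with MCP, 186 to 205 with vehicle) and megakaryocyte genes (44.3 to 52.1 with MCP, 86.8 to 103 with vehicle). Erythroid (532 to 551 with MCP, 562 to 620 with vehicle) and B cell sums (0.71 to 2.25 with MCP, 2.42 to 6.22 with vehicle) did not overlap either. S100a8 and S100a9 were the only neutrophil markers higher in every MCP library. Ltf was lower in every MCP library (at most 1.56 with MCP, at least 2.32 with vehicle). Mmp8 gave no signal with MCP and 0.168 to 0.192 with vehicle. Camp, Ngp, Lcn2 and Cxcr2 overlapped. Of the erythroid markers, Hbb-bs, Hba-a1 and Tfrc were lower in every MCP library. Car1 was higher in every MCP library (at least 118 with MCP, at most 111 with vehicle). Macrophage, plasma cell, and T and NK cell sums overlapped. The member Xbp1 made up most of the plasma cell sum (76.2 to 106 RPKM with MCP, 96.3 to 101 with vehicle). Of these lists, Jchain, Prdm1, Mzb1, C1qa, C1qb, C1qc, Lck and Ncr1 were lower in every MCP library. Jchain, C1qb, C1qc and Ncr1 gave no signal with MCP, and Jchain measured 3.26 to 5.05 with vehicle. No macrophage, plasma cell, or T and NK cell marker was higher in every MCP library. The part of these marker sums in the values below was not tested. In bulk libraries, fewer cells of a type and less RNA per cell cannot be told apart.

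Among the ER chaperones, 7 of 9 had positive differences, with a median of 0.11. Hspa5, which binds unfolded chains in the lumen, measured 855, 832 and 802 RPKM with MCP, against 709, 723 and 692 with vehicle. All 3 MCP libraries were above all 3 vehicle libraries, and the log2 difference was 0.23 (SE 0.058, 95% interval 0.09 to 0.36, adjusted p = 0.0817). Dnajb9 (ERdj4), a co-chaperone of Hspa5 that also acts on Ern1, measured 41.5, 49.2 and 45.7 with MCP, against 36.0, 31.6 and 27.9 with vehicle. Its groups did not overlap either, and its log2 difference was 0.51 (SE 0.12, adjusted p = 0.0777). Dnajb11, another Hspa5 co-chaperone, separated as well, with 119, 121 and 119 with MCP against 110, 116 and 112 with vehicle, a log2 difference of 0.09. Manf, a secreted and ER-resident stress factor, had 357, 419 and 379 with MCP and 286, 358 and 298 with vehicle, which overlapped by a single pair of libraries (log2 difference 0.30, adjusted p = 0.155). Hsp90b1, by contrast, had an interval from −0.14 to 0.18 around a log2 difference of 0.02, and Hyou1, the exchange factor of Hspa5, from −0.19 to 0.14 around −0.03. For the remaining members of the group the log2 differences were 0.21 for Sdf2l1, 0.11 for Creld2 and −0.11 for Dnajc3.

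The enzymes and lectins of glycoprotein folding split by gene. Pdia3 (ERp57; chromosome 2, 121413775 to 121438687, plus strand, GENCODE M21 on GRCm38), the isomerase that works with the lectins, measured 618, 604 and 599 RPKM with MCP, against 492, 532 and 504 with vehicle. Every MCP library exceeded every vehicle library, and of all members Pdia3 had the smallest p (log2 difference 0.25, SE 0.059, adjusted p = 0.0698). Canx, one of its lectin partners, measured 591, 576 and 569 with MCP, against 659, 687 and 678 with vehicle, the opposite order with no overlap (log2 difference −0.22, SE 0.056, adjusted p = 0.0814). Quantile normalization put Canx past the threshold as lower with MCP (adjusted p = 0.0263). Calr, the soluble lectin, had overlapping libraries and a log2 difference of −0.01 (95% interval −0.15 to 0.14). Pdia4, Pdia6 and P4hb, which form and shuffle disulfide bonds, differed by −0.08, 0.02 and 0.11 with intervals that included 0.

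Sec61b, a subunit of the channel through which new chains enter the ER, measured 64.5, 93.9 and 94.9 RPKM with MCP, against 55.7, 60.0 and 53.9 with vehicle. The groups did not overlap, with MCP library 1 close to the vehicle range (log2 difference 0.55, SE 0.15, adjusted p = 0.101), and without MCP library 1 Sec61b passed the threshold (log2 difference 0.73, adjusted p = 0.0251). Sel1l, which carries substrates to the ubiquitin ligase of ERAD, was 37.1, 33.7 and 39.5 with MCP and 41.5, 43.9 and 46.6 with vehicle, lower in each MCP library (log2 difference −0.25, adjusted p = 0.194). Syvn1, that ligase, ranged from 16.5 to 30.9 with MCP and from 23.3 to 25.0 with vehicle. Herpud1 and Edem1, further ERAD genes, differed by −0.07 and −0.08.

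The sensors had negative differences that missed the threshold. Ern1 measured 24.4, 18.5 and 24.3 RPKM with MCP, against 27.0, 29.3 and 33.7 with vehicle (log2 difference −0.41, SE 0.15, adjusted p = 0.168). Eif2ak3 was 6.92, 8.16 and 9.71 with MCP and 11.2, 12.1 and 11.6 with vehicle (log2 difference −0.46, SE 0.17, adjusted p = 0.181). Both genes were lower in every MCP library than in every vehicle library. Atf6 measured 26.9, 29.2 and 16.7 with MCP and 25.4, 27.3 and 27.2 with vehicle, with MCP library 3 alone below the vehicle range. Xbp1, whose spliced form drives ERAD and chaperone genes, measured 106, 84.2 and 76.2 with MCP against 101, 98.2 and 96.3 with vehicle, on both sides of the vehicle range (log2 difference −0.16). Atf4 was 224, 262 and 215 with MCP and 224, 252 and 225 with vehicle, and its log2 difference of −0.003 had a 95% interval from −0.22 to 0.22. Ddit3 was 45.2, 54.9 and 42.8 with MCP and 41.8, 43.9 and 45.3 with vehicle, overlapping, with a log2 difference of 0.12.

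Targets of Atf4 and CHOP had no positive difference among the 5 tested. Ppp1r15a measured 88.1, 80.2 and 73.2 RPKM with MCP, against 95.8, 95.7 and 107 with vehicle, without overlap (log2 difference −0.30, SE 0.095, adjusted p = 0.123). Asns, which makes asparagine, averaged 77.2 ± 8.77 with MCP and 77.1 ± 5.44 with vehicle (SD, n = 3 each), and Psat1, of serine synthesis, 67.7 ± 3.89 with MCP and 73.1 ± 7.82 with vehicle. Sesn2 and Trib3 lay under 6 RPKM in all 6 libraries and their intervals, −1.46 to 0.65 for Sesn2 and −1.61 to 0.49 for Trib3, do not limit the difference usefully. In all, 5 members (Hspa5, Dnajb9, Dnajb11, Pdia3 and Sec61b) were higher in every MCP library than in every vehicle library, where 4.91% of all features were. Another 5 (Canx, Sel1l, Ern1, Eif2ak3 and Ppp1r15a) were lower in every MCP library, where 25.6% of all features were.

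**Figure D2:**
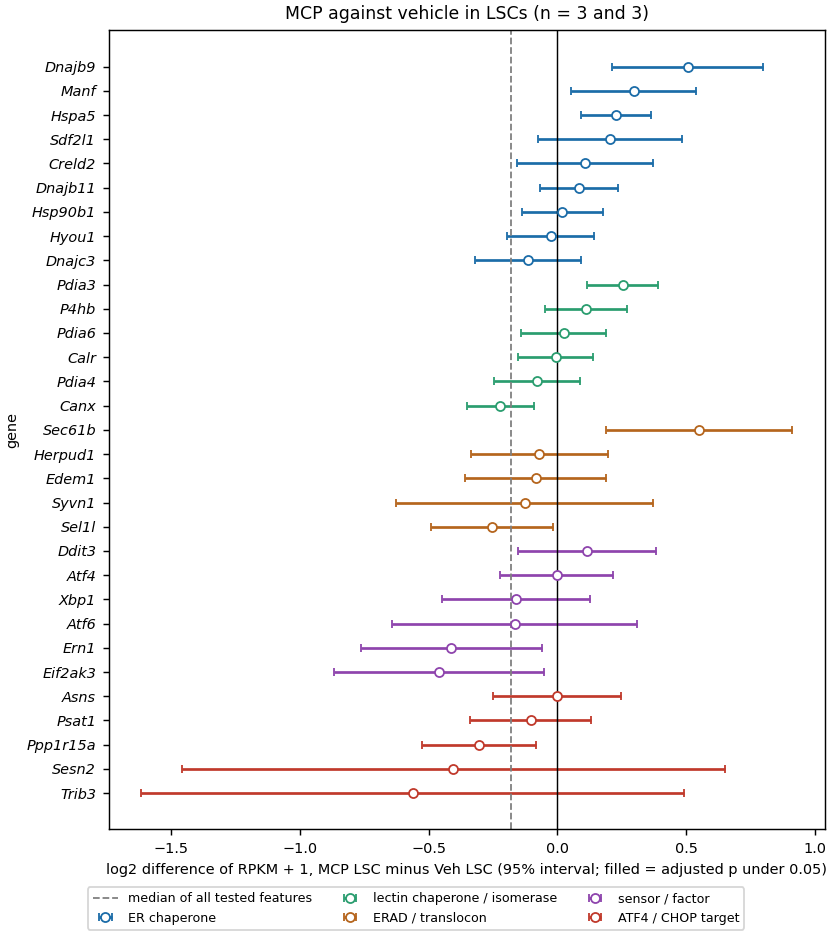
Log2 difference of RPKM + 1, MCP LSC minus Veh LSC (x axis), for the 31 members tested (y axis, coloured by role and ordered within it), with 95% intervals from 3 libraries a group; open points did not pass the adjusted threshold. The dashed line is the median of all tested features (−0.18); the ER chaperones lie mostly to the right of 0 and the sensors Ern1 and Eif2ak3 to the left.

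Of the wider list, 106 genes were tested and 2 passed, 0.943% in each direction, where 2.32% of all features passed in either. Fkbp11 (chromosome 15, 98724366 to 98728198, minus strand), a proline isomerase of the secretory pathway, rose to 61.6, 51.5 and 53.4 RPKM with MCP, against 29.7, 34.8 and 31.1 with vehicle (log2 difference 0.78, SE 0.11, adjusted p = 0.0243). Every MCP library was well above the vehicle range. Eif2ak2 (PKR), an eIF2 alpha kinase that double-stranded RNA activates, fell to 23.8, 29.0 and 30.7 with MCP, against 41.6, 42.2 and 47.6 with vehicle (log2 difference −0.64, SE 0.12, adjusted p = 0.0495). Its call was lost in 11 of 12 alternatives (adjusted p 0.0432 to 0.229), and that of Fkbp11 in 4 of 12 (0.0126 to 0.124). The median log2 difference of the wider list was −0.12.

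The comparison of WT LSC with WT LSK cells asks how the program differs between leukemic and naive cells. No member rose and 8 fell, or 25.0% of the 32, where 43.8% of all 13485 features tested passed and 42.3% fell; the share of members was below the background. In every WT LSC library 3 members were higher than in both WT LSK libraries (6.29% of all features were) and 18 were lower (56.3%). The median log2 difference was −1.72 for the members and −1.94 for all features. Quantile normalization moved the median of all features to 0.23 and that of the members to −0.10, and under it 1351 features rose and 1568 fell in place of 196 and 5709. It left 3 member calls, P4hb, Xbp1 and Psat1.

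Most chaperones, which are abundant, remained detected in WT LSCs at levels that varied between libraries. Hspa5 measured 274, 597 and 236 RPKM in WT LSC and 298 and 550 in WT LSK, overlapping (log2 difference −0.26, 95% interval −5.39 to 4.88). Hsp90b1 was 724, 605 and 433 in WT LSC, each above the 344 and 420 of WT LSK (log2 difference 0.59, adjusted p = 0.499). Calr was 1566, 1658 and 1272 in WT LSC and 428 and 808 in WT LSK, again without overlap (log2 difference 1.34, adjusted p = 0.377), and it passed when only these groups were in the model (adjusted p = 0.0412). Dnajb11 was 51.4, 0.678 and 0.003 in WT LSC against 103 and 153 in WT LSK, and Hyou1 0.108, 1.83 and 0.003 against 7.92 and 16.4 in WT LSK, both without passing. The spread within WT LSC was wide, with a median coefficient of variation of 81.8% over the members with signal in any WT LSC library. In WT LSK, where all members had signal, it was 28.9%.

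P4hb, the isomerase best known as protein disulfide isomerase, fell to 16.5, 1.43 and 5.85 RPKM in WT LSC, against 192 and 389 in WT LSK (log2 difference −5.37, SE 1.04, adjusted p = 0.00352), a call lost with library weights (0.878). Pdia3 was 197, 425 and 263 in WT LSC and 610 and 862 in WT LSK, lower in each LSC library without passing (log2 difference −1.37, adjusted p = 0.236). The ERAD pair Sel1l and Syvn1 both fell. Sel1l was 0.003, 0.159 and 0.003 in WT LSC against 21.2 and 39.1 in WT LSK (adjusted p = 1.79e-05; 0.235 with library weights), and Syvn1 was at the lowest value in all 3 WT LSC libraries against 8.80 and 35.0 in WT LSK (adjusted p = 0.000428). Where a whole group is at the lowest value, the log2 difference depends on the 1 RPKM added and is left out here. Edem1, in the same pathway, was 18.2, 18.1 and 66.8 in WT LSC and 6.68 and 8.48 in WT LSK, higher in each LSC library without passing (adjusted p = 0.491).

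Among the sensors and factors, the transcripts of Ern1 and Xbp1 fell while Atf4 did not pass. Xbp1 (chromosome 11, 5520659 to 5525893, plus strand) measured 14.1, 0.003 and 0.003 RPKM in WT LSC, against 114 and 179 in WT LSK (log2 difference −5.86, SE 1.14, adjusted p = 0.00346). Ern1 was 0.221, 0.003 and 0.003 in WT LSC against 7.92 and 8.38 in WT LSK (log2 difference −3.09, adjusted p = 1.2e-05). With 2 WT LSC libraries at the lowest value, the size of both differences also depends on the 1 RPKM added. The Ern1 call was lost in 1 of 11 alternatives (limma, adjusted p up to 0.883). The other 2 sensors did not follow Ern1 past the threshold: Eif2ak3 was 6.68, 0.003 and 0.003 in WT LSC and 1.80 and 2.18 in WT LSK, and Atf6 0.003, 12.97 and 38.7 in WT LSC and 6.55 and 18.4 in WT LSK. Atf4 was 342, 219 and 621 in WT LSC and 475 and 274 in WT LSK, with a log2 difference of −0.004 (95% interval −1.90 to 1.89). Ddit3 was 47.9, 52.6 and 0.003 in WT LSC and 59.1 and 65.0 in WT LSK, a single LSC library setting the difference.

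Of the Atf4 and CHOP targets, Trib3, Sesn2 and Psat1 fell to the lowest value in all 3 WT LSC libraries. WT LSK libraries had 4.69 and 11.5 RPKM of Trib3 (adjusted p = 0.00037), 8.83 and 7.49 of Sesn2, which restrains growth signalling under stress (adjusted p = 0.000116), and 22.1 and 68.6 of Psat1 (adjusted p = 3.18e-05). Ppp1r15a, in contrast, was 38.5, 77.2 and 171 in WT LSC and 199 and 150 in WT LSK, overlapping (adjusted p = 0.309). Asns was 10.4, 13.001 and 0.003 in WT LSC against 31.8 and 28.7 in WT LSK and did not pass.

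**Figure D3:**
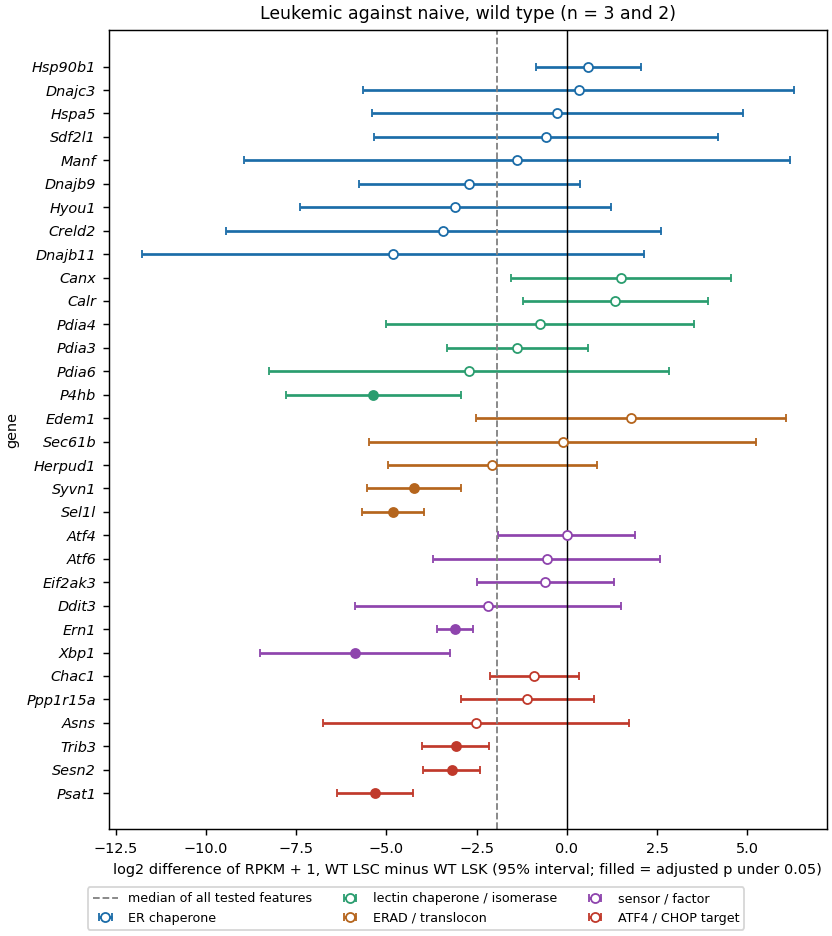
Log2 difference of RPKM + 1, WT LSC minus WT LSK (x axis), for the 32 members (y axis, coloured by role), with 95% intervals from 3 and 2 libraries; filled points passed the adjusted threshold. The 8 filled points all lie left of the dashed median of all tested features (−1.94), and most open chaperone intervals span several log2 units.

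In the wider list 36 of 106 genes (34%) fell and 2 rose in WT LSC, where 42.3% of all features fell, and the median log2 difference was −1.92 beside −1.94 for all features. The genes with the smallest p were Ddit4, an inhibitor of growth signalling under stress, and Mbtps2, a protease that cleaves Atf6; both were at the lowest value in all 3 WT LSC libraries, against 10.1 ± 1.89 RPKM of Ddit4 and 6.60 ± 0.574 of Mbtps2 in WT LSK (mean ± SD, n = 2; adjusted p = 5.11e-06 each). Mbtps1, the other protease of Atf6, fell to 0.173 ± 0.294 in WT LSC, against 31.2 ± 11.2 in WT LSK (adjusted p = 1.62e-05). Ube2g2, the ubiquitin-conjugating enzyme of ERAD, Ssr3, of the translocon-associated complex, and Cebpg, a partner of Atf4, fell as well (adjusted p 9.6e-06 to 1.7e-05). The 2 that rose were named after their values were seen: Atf3 was 19.6, 23.4 and 1.70 in WT LSC against 0.003 and 0.989 in WT LSK (adjusted p = 0.0398), and Cebpb 3.27, 2.05 and 5.19 against 0.386 and 0.003 in WT LSK (adjusted p = 0.00202). The Atf3 call was lost in several alternatives, among them each single omission of WT LSC 1, WT LSC 2, WT LSK 1 and WT LSK 2.

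Cell type markers moved with this comparison. Neutrophil markers summed to 63606 to 109521 RPKM in WT LSC and 1970 to 5627 in LSK libraries, and macrophage markers to 11630 to 25780 in WT LSC and 1972 to 4879 in LSK libraries. Not every neutrophil marker went this way: of the 10, 5 to 8 were detected in WT LSC libraries and 7 to 9 in LSK libraries. Cxcr2, detected in both WT LSK libraries, and Ly6g were at the lowest value in all 3 WT LSC libraries. Plasma cell markers (8, among them the member Xbp1) summed to at most 15.96 in WT LSC, with Jchain, Sdc1 and Mzb1 at the lowest value in all 3, and to 289 to 556 in LSK libraries, where at least 7 of the 8 were detected. Their part in the fall of Xbp1 and its neighbours in the pathway was not tested.

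In KO LSC against KO LSK cells 13 members fell and none rose, or 40.6% of the 32 beside 62.2% of all features passing and 61.7% falling. The median log2 difference was −2.93 for the members and −3.06 for all features. Quantile normalization moved these medians to 0.09 and 0.12 and left 3 calls, with Xbp1 and Ppp1r15a lower and Chac1 higher. Chac1 gave no signal in KO LSC (0.003 RPKM in each library), against 2.71 and 0.003 in KO LSK. Its call thus does not show a higher level in KO LSC, and what produced it was not tested. Xbp1, Ern1, Ddit3, Syvn1, Dnajb9, Trib3, Sesn2, Psat1 and Ppp1r15a had no KO LSC library above the lowest value. KO LSK libraries had 112 and 84.7 RPKM of Xbp1 (adjusted p = 0.00147), 5.41 and 7.67 of Ern1 (1.82e-05), 56.9 and 61.5 of Ddit3 (0.0128), 11.2 and 4.01 of Syvn1 (0.00244), 10.1 and 26.2 of Dnajb9 (0.0268), 14.0 and 6.41 of Trib3 (0.00019), 9.19 and 22.3 of Sesn2 (3.51e-05), 30.8 and 24.2 of Psat1 (5.53e-05) and 157 and 154 of Ppp1r15a (0.000125). Each of these genes was present in both KO LSK libraries, and Dnajb9 lost its call with any single KO library left out (adjusted p 0.0543 to 0.149) and Ddit3 without either KO LSK library (0.0649 and 0.0667). P4hb was 0.003, 2.94 and 0.003 in KO LSC against 231 and 138 in KO LSK (adjusted p = 0.000797), and Sel1l 0.003, 0.003 and 0.483 against 16.6 and 10.6 in KO LSK (8.36e-05). Herpud1 was 0.003, 6.98 and 0.003 in KO LSC against 67.7 and 54.3 in KO LSK (0.00979), a call lost without KO LSK 1 (0.0594). Library weights ended the calls of P4hb (0.627), Sel1l (0.24) and Herpud1 (0.957). Sdf2l1, part of the Hspa5 chaperone complex, was 0.003, 128 and 0.003 in KO LSC against 219 and 302 in KO LSK (0.042); its call was lost in 8 of 12 alternatives, among them the omission of KO LSC 1, KO LSC 3, KO LSK 1 or KO LSK 2 (adjusted p 0.0974 to 0.153). Without the library labelled KO LSC 2 there were 17 calls, with Hyou1, Creld2, Pdia4, Pdia6 and Asns also lower (adjusted p 0.000354 to 0.0182) and Dnajb9 lost (0.0558). Calr passed as higher without KO LSC 1 (0.0199), and without KO LSC 3 Manf passed as higher (0.0278) and Edem1 as lower (0.00309). Atf6 and Eif2ak3, at the lowest value in every KO LSC library, measured 10.6 and 4.96 (Atf6, adjusted p = 0.0828) and 0.272 and 0.883 (Eif2ak3) in KO LSK and did not pass. Neutrophil markers summed to 31522 to 55005 RPKM in KO LSC and 2683 to 4389 in KO LSK. Of these 10 markers, 4 or 5 were detected in KO LSC libraries and 7 or 8 in KO LSK libraries. Ngp, detected in both KO LSK libraries, was at the lowest value in every KO LSC library. Macrophage markers summed to 13572 to 32471 in KO LSC, with 6 of 8 detected in each library. They summed to 3965 to 4879 in KO LSK, with all 8 detected. Plasma cell markers summed to at most 0.299 in KO LSC and 289 to 481 in KO LSK. The part of these markers in these calls was not tested. Of the wider list, 71 of 106 genes (67%) fell and none rose, with a median log2 difference of −3.97; Cebpg, undetected in KO LSC against 79.2 ± 16.3 RPKM in KO LSK (mean ± SD, n = 2), had the smallest p (adjusted p = 7.27e-06).

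The 3 KO LSC libraries were uneven. The highest member was Manf in libraries 1 and 2 (1712 and 5246 RPKM) and Calr in library 3 (8463 RPKM), while Manf was at 0.003 in library 3. Dnajb11 was 0.003, 136 and 1751, and Hspa5 489, 376 and 0.939. Across the members with signal in any KO LSC library, the median coefficient of variation was 162%. Hsp90b1, Hspa5, Calr, Canx, Pdia3 and Atf4 were the 6 members above the lowest value in all 3 libraries.

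KO against WT in LSCs asks what loss of Cd93 did in leukemic cells, and 1 member passed. Ppp1r15a (chromosome 7, 45522916 to 45526268, minus strand, protein-coding, GENCODE M21 on GRCm38) fell to 0.003 RPKM in each KO LSC library, against 38.5, 77.2 and 171 RPKM in WT LSC (adjusted p = 0.00105). That is 3.12% of the members, where 8.81% of all features passed and 8.74% fell. The call held in all 13 alternatives, with an adjusted p of 0.00338 without the library labelled KO LSC 2. In the difference of the leukemia effects between genotypes, KO minus WT, Ppp1r15a was again the only member past the threshold (adjusted p = 0.0184, beside 6.08% of all features), and it lost the call in 4 of 16 alternatives, among them the omission of WT LSK 2 (0.0531; over all 16, adjusted p 0.00425 to 0.259). Without the library labelled KO LSC 2, Sdf2l1, Pdia4 and Pdia6 also passed in that difference, as lower (adjusted p 0.0207 to 0.0488). At an unadjusted p below 0.05 there were 6 of 32 members for KO LSC against WT LSC, and 21.1% of all features. Neutrophil markers summed to 31522 to 55005 RPKM in KO LSC and 63606 to 109521 in WT LSC, without overlap, and macrophage markers to 13572 to 32471 in KO LSC and 11630 to 25780 in WT LSC, with overlap; their part in these values was not tested.

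The sensors and factors gave no further call in KO LSC against WT LSC. Ern1, Eif2ak3 and Xbp1 stood at the lowest value in each KO LSC library and in 2 of 3 WT LSC libraries. Ddit3 was at the lowest value in every KO LSC library and 47.9, 52.6 and 0.003 in WT LSC (adjusted p = 0.211), and without WT LSC 3 it passed as lower (0.000395). Atf6 was likewise at 0.003 in KO LSC, against 0.003, 12.97 and 38.7 in WT LSC (adjusted p = 0.214), and passed without WT LSC 1 (0.00376). Atf4 stayed measurable everywhere, at 229, 87.8 and 318 in KO LSC and 342, 219 and 621 in WT LSC, overlapping (log2 difference −0.95, adjusted p = 0.537). Hspa5 was 489, 376 and 0.939 in KO LSC and 274, 597 and 236 in WT LSC (log2 difference −2.26, adjusted p = 0.578). Without the library labelled KO LSC 2, Sdf2l1, Pdia4, Pdia6 and Herpud1 passed as lower (adjusted p 0.00204 to 0.0323); without KO LSC 3, Manf passed as higher (0.0311) and Edem1 as lower (0.00722).

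In the wider list 13 of 106 genes (12.3%) fell and none rose in KO LSC against WT LSC, where 8.74% of all features fell. Eif2ak4 (GCN2), the eIF2 alpha kinase for amino acid shortage, was listed at 0.003 RPKM throughout KO LSC, against 24.8, 33.3 and 38.0 in WT LSC (adjusted p = 0.000498). The same held for Ufd1 and Os9, of ERAD, with 110 ± 70.1 and 84.1 ± 40.8 RPKM in WT LSC (mean ± SD, n = 3; adjusted p = 0.000759 and 0.000845), and for the transfer RNA synthetases Gars and Cars (34.1 ± 16.5 and 35.6 ± 36.1 in WT LSC; 0.000922 and 0.00334). Cebpb was also at the lowest value in KO LSC, against 3.505 ± 1.59 in WT LSC (0.00278; 0.0693 with only these groups in the model). No KO LSC library gave signal for 12 of 32 members, or 37.5%, and for 70.6% of all features tested; for WT LSC these shares were 15.6% and 30.9%. A gene at the lowest value in KO LSC was not detected in these libraries, which does not show that it was absent.

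**Figure D4:**
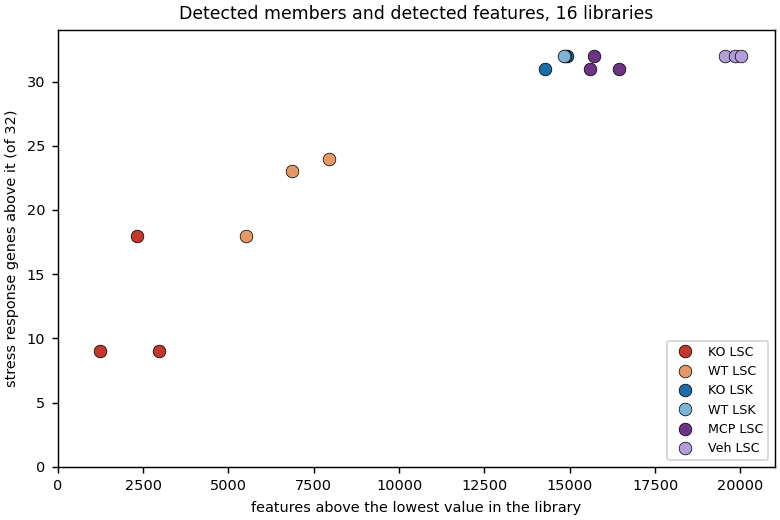
Number of the 32 members above the lowest listed value (y axis) against the number of all features above it (x axis), 1 point per library, coloured by group. KO LSC libraries hold 9 to 18 members at 1230 to 2967 features, WT LSC libraries 18 to 24 at 5525 to 7956, and the LSK, MCP and Veh libraries 31 or 32.

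KO against WT in naive LSK cells gave no member call, beside 1.83% of all features (limma, two-sided, adjusted p under 0.05), and 1 member at an unadjusted p below 0.05, where 8.7% of all features were. That was Sel1l, with 16.6 and 10.6 RPKM in KO LSK against 21.2 and 39.1 in WT LSK (log2 difference −1.06, SE 0.40, adjusted p = 0.44). The log2 difference was negative for 24 of 32 members, with a median of −0.34 against −0.11 for all features. In 14 members both KO libraries were lower than both WT libraries, where 20.5% of all features were, and in 2 both were higher, where 14% were. Hspa5 belonged to the first kind, with 252 and 244 in KO LSK against 298 and 550 in WT LSK (log2 difference −0.70, 95% interval −6.33 to 4.92). So did Xbp1, with 112 and 84.7 in KO LSK and 114 and 179 in WT LSK, Ern1, with 5.41 and 7.67 in KO LSK and 7.92 and 8.38 in WT LSK, and Eif2ak3, with 0.272 and 0.883 in KO LSK and 1.80 and 2.18 in WT LSK. Atf4 was 310 and 427 in KO LSK and 475 and 274 in WT LSK, Ddit3 56.9 and 61.5 in KO LSK and 59.1 and 65.0 in WT LSK, and Atf6 10.6 and 4.96 in KO LSK and 6.55 and 18.4 in WT LSK, all overlapping. WT LSK 2 was the higher WT library for most chaperones (550 against 298 for Hspa5, 808 against 428 for Calr, 389 against 192 for P4hb). The intervals use a spread that the model shares between these libraries and the LSC libraries. No gene of the wider list passed (0 of 106, with 2 at an unadjusted p below 0.05). Without WT LSK 1 Psat1 passed as lower (adjusted p = 0.0455), and without KO LSK 1 Sesn2 passed as higher (0.00668).

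Levels of LSCs in the experiments, which were normalised separately and are not tested against each other, differed by gene. P4hb averaged 420 RPKM with vehicle and 7.93 in WT LSC, Xbp1 98.4 with vehicle and 4.70 in WT LSC, Sel1l 44.0 with vehicle and 0.055 in WT LSC, and Psat1 73.1 with vehicle and 0.003 in WT LSC. Calr, at 1689 with vehicle and 1498 in WT LSC, and Hsp90b1, at 662 with vehicle and 587 in WT LSC, stood at like levels. The libraries named LSC of the experiments also differed in the sum of neutrophil markers (186 to 205 RPKM with vehicle, at least 63606 in WT LSC). Of these 10 markers, 8 were detected in each vehicle library and 5 to 8 in WT LSC libraries.

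**Figure D5:**
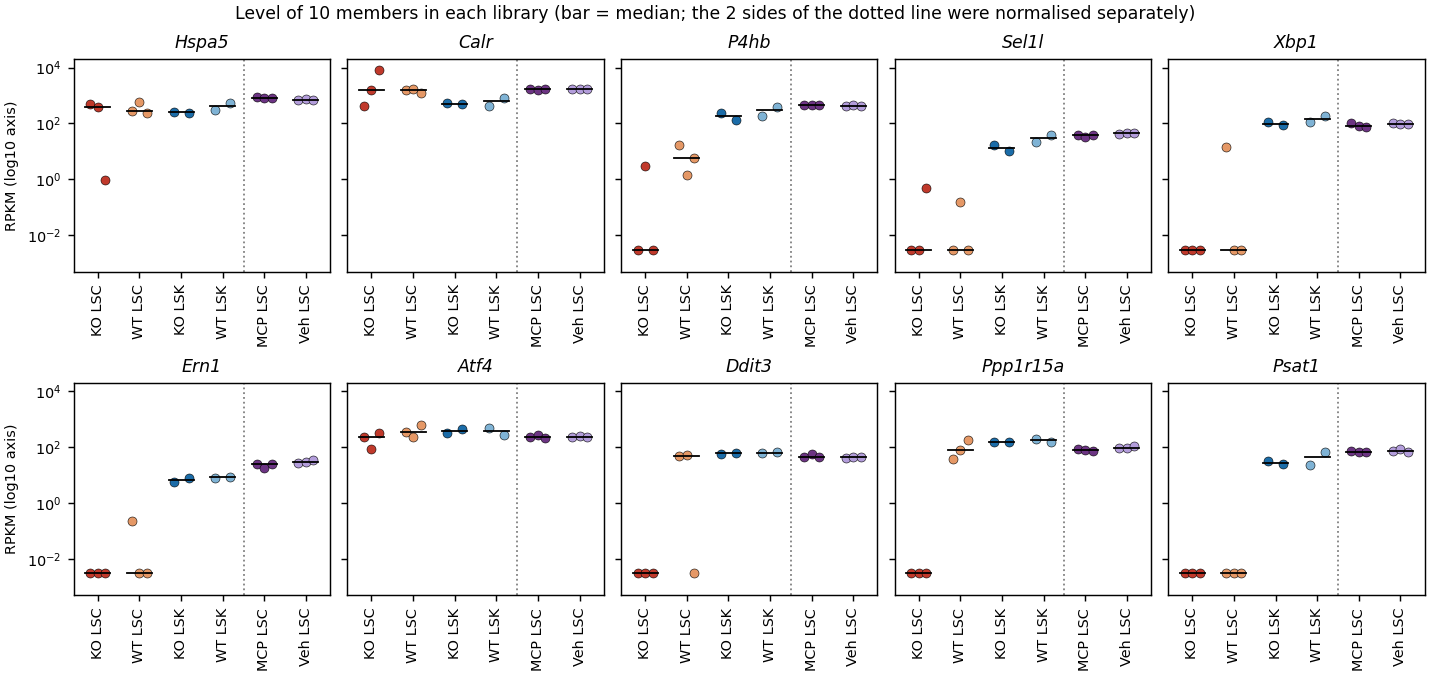
Level in RPKM (y axis, log10 scale) of 10 members in each library of the 6 groups, with a bar at the group median; the dotted line separates the CD93 experiment (left) from the drug experiment (right), which were normalised separately. Atf4 and Calr measure at least 87.8 RPKM in all 16 libraries. In LSC libraries of the CD93 experiment, Sel1l, Ern1 and Psat1 reach at most 0.483 RPKM, Xbp1 14.1 and P4hb 16.5.

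Set by promoter, the 10 members with an ERSE or ERSE-II and the 19 with neither differed in detection. Of those with an element, 7 of 10 were above the lowest value in all 3 WT LSC libraries and 1, Syvn1, fell in WT LSC against WT LSK; of those without, 8 of 19 were above it and 7 fell. Of all features tested, 29.6% were above the lowest value in all 3 WT LSC libraries and 42.3% fell. Their levels in naive cells differed too, with a median over genes of 134 RPKM for those with an element and 45.3 for those without in WT LSK, and the part of level in this count was not tested. With MCP the median log2 difference was 0.01 for those with an element and −0.08 for those without, and no gene of either kind passed.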

How the data were processed

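RNA from 16 libraries was amplified with the SMART-Seq v4 kit and mapped to GRCm38 (mm10), per the labels and the submitters' processing notes; the aligner, counting tool and gene models were not given in the sources used. The deposited values were taken as RPKM, which was inferred from the values. They hold no counts, so no counting interval was computed, and how reads shared by overlapping or similar genes were counted is not known. Values were analysed as log2(RPKM + 1) with limma 3.58.1 (statmod 1.5.0, R 4.3.3, intensity trend, 1 mean per group) on features that reached 1 RPKM in 2 or more libraries (13485 and 14005), 1 model per experiment; tests were two-sided, with Benjamini-Hochberg adjustment over every tested feature and a threshold of 0.05. A difference on this scale understates the change of low genes. The code was tested on simulated data. The 32 members, the wider list and the markers were chosen with earlier results of these data known; the 32 were matched by symbol, as were 105 and 107 of the wider list, and 7 and 5 by synonym. Values in every library are given for members past the threshold whose higher group averaged at least 5 RPKM, for the sensors, Hspa5, Xbp1, Atf4 and Ddit3, and for members that a result turns on; of the wider list up to 6 with the smallest p. Alternatives were quantile normalization, no filter, a mean filter of 5 RPKM, a pseudocount of 0.1, a replicate block, library weights, only the groups compared and each library left out; a crossed block was added after seeing the data.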

Additional observations from a re-analysis of the deposited data

Results flagged for a closer look

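In the difference of the leukemia effects between genotypes (KO LSC minus KO LSK, less WT LSC minus WT LSK), 1 member and 5 genes of the wider list passed (limma, adjusted over all features). The log2 difference was −6.19 for Ppp1r15a (SE 1.12, adjusted p = 0.0184), −4.86 for the kinase Eif2ak4 (SE 0.65, 0.00854), −3.33 for Cebpb (SE 0.46, 0.00866), −4.95 for Gars (SE 0.86, 0.0163), −6.04 for Ufd1 (SE 1.08, 0.0177) and −5.87 for Os9 (SE 1.06, 0.018). All 6 genes were at the lowest value in the 3 KO LSC libraries, and the size of each difference depends on the 1 RPKM added. Ppp1r15a lost the call in 4 of 16 alternatives, Gars, Ufd1 and Os9 in 3 of 16 each, Eif2ak4 in 2 of 16 and Cebpb in 2 of 15 (adjusted p up to 0.275 over the 6 genes); the replicate block and quantile normalization ended all 6 calls. KO LSC libraries had 1230 to 2967 features above the lowest value, and WT LSC libraries 5525 to 7956; the part of this in the differences was not tested.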

How the results depend on the processing

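Quantile normalization left 3 member calls in place of 8 for WT LSC against WT LSK, 3 in place of 13 for KO LSC against KO LSK, 0 in place of 1 for the difference between these effects, and 1 (Canx) in place of 0 for MCP against vehicle. Under it log2 differences of KO LSC against KO LSK turned positive for Sel1l (1.53), Syvn1 (0.22), Ern1 (0.24), Trib3 (0.0041), Ddit4 (0.10) and Mbtps2 (0.46). Of these genes only Sel1l gave any signal in KO LSC, with 0.003, 0.003 and 0.483 RPKM. Each of them was detected in both KO LSK libraries, at a higher level than in any KO LSC library. The positive differences thus do not show higher levels in KO LSC, and what produced them was not tested. A filter on a mean of 5 RPKM gave 5 calls for WT LSC against WT LSK, with 27 members tested. Library weights gave 0 for the difference between the leukemia effects. Replicate numbers did not pair the libraries: correlations of deviations were at most 0.034 in size for KO against WT in LSC and 0.023 for MCP against vehicle. The replicate block gave 0 calls for the difference between the leukemia effects, where no feature passed, and left the other member counts as they were; over all features it gave 5 in place of 247 for KO LSK against WT LSK and 39 in place of 325 for MCP against vehicle. In LSK cells the same-number correlation was −0.28, and a crossed pairing, added after seeing the data, gave 0 members and 5 features. With each library left out in turn, member calls ranged from 0 to 1 for MCP against vehicle, 1 to 5 for KO LSC against WT LSC, 0 to 1 for KO LSK against WT LSK, 8 to 9 for WT LSC against WT LSK, 9 to 17 for KO LSC against KO LSK and 0 to 4 for the difference between effects. With 1 library left in an LSK group, it was assumed to vary like the others. Over all features, quantile normalization turned 10 higher and 1178 lower for KO LSC against WT LSC into 562 and 745, and 110 and 137 for KO LSK against WT LSK into 11 and 4.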

Other observations

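Ratios between members of 1 library do not depend on how libraries were scaled. The ratio of Hspa5 to Hsp90b1, chosen after its values were seen, was 1.19, 1.28 and 1.25 in the MCP libraries and 1.10, 1.07 and 1.04 in the vehicle libraries, so the groups did not overlap. The ratio of Canx to Calr was 0.35, 0.356 and 0.328 with MCP and 0.403, 0.392 and 0.404 with vehicle, again without overlap. Hspa5 and Canx had each separated the groups on their own, and how often ratios of other genes do so was not computed. The ratio of Dnajb9 to Hspa5, also computed, was 0.0485, 0.0592 and 0.0570 with MCP and 0.0508, 0.0438 and 0.0403 with vehicle, which overlapped. The first 2 ratios varied more in the CD93 experiment, where Hspa5 to Hsp90b1 was 1.43, 0.611 and 0.0041 in KO LSC, 0.379, 0.986 and 0.545 in WT LSC, 0.825 and 0.798 in KO LSK and 0.865 and 1.31 in WT LSK.

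Fkbp11, which rose with MCP, gave no signal in KO LSC and measured 239, 277 and 18.3 RPKM in WT LSC, 49.8 and 124 in KO LSK and 116 and 41.2 in WT LSK. The summed level of the 32 members took 0.784%, 0.765% and 0.733% of the column total with MCP and 0.792%, 0.814% and 0.818% with vehicle, with every vehicle library above every MCP library. The summed levels themselves overlapped, at 7183, 7052 and 6981 RPKM with MCP and 6648, 7125 and 6781 with vehicle. Column totals were larger with MCP (916180 to 951754) than with vehicle (828690 to 875750), so the lower share does not show lower member levels. In the CD93 experiment the members' share of the column total was 0.426%, 0.733% and 0.964% in KO LSC, 0.363%, 0.427% and 0.399% in WT LSC, 0.371% and 0.323% in KO LSK and 0.376% and 0.607% in WT LSK.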
